A study of Mus musculus with 12 samples.

Results

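The genes described are 10 regulators of the cell cycle: 5 genes filed as inhibitors of cyclin-dependent kinases (Cdkn1a, Cdkn1b, Cdkn2c, Cdkn2d and Cdkn3), 2 pocket protein genes (Rb1 and Rbl1) and 3 E2F transcription factor genes (E2f1, E2f2 and E2f8). They were taken by symbol from a table of 43430 Ensembl genes, and each of the 10 matched 1 row. The cells are alveolar macrophages, which live in the air spaces and clear particles and microbes, in a murine lung transplant model. Polyadenylated RNA was sequenced from 4 libraries of naive lungs, 4 libraries of lungs 2 h after reperfusion and 4 libraries of lungs 24 h after reperfusion (blood let back into the graft). Every library is labelled as a male mouse of 14 weeks with the genotype Cx3cr1gfp/+B6, so the naive libraries carry the same reporter allele as the reperfused ones. Titles of libraries from reperfused lungs carry an unexplained word, Allo, and no label states whether 1 animal gave more than 1 library.

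Cyclin-dependent kinases (CDKs) drive the cell cycle when bound to cyclins. The CIP/KIP inhibitors p21 (Cdkn1a) and p27 (Cdkn1b) bind the cyclin-CDK complexes, whereas the INK4 inhibitors p18 (Cdkn2c) and p19 (Cdkn2d) bind CDK4 and CDK6 themselves. Pocket proteins, among them RB and p107 (Rbl1), hold E2F factors in check, and phosphorylation of the pocket proteins by CDKs releases the E2F factors. The released factors switch on genes of DNA replication, several E2F genes among them. Alveolar macrophages are known for maintaining themselves in the lung by local division.

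The genes lie at separate places in the genome, given here from GENCODE vM21 on GRCm38 (mm10). Among the inhibitors, Cdkn1a is at chr17:29090976-29100727 and Cdkn1b at chr6:134920401-134925513, both on the plus strand. Cdkn2c is at chr4:109660876-109667189 and Cdkn2d at chr9:21288410-21291407, both on the minus strand, and Cdkn3 is at chr14:46760541-46771669 on the plus strand. The pocket protein genes Rb1, at chr14:73183673-73325822, and Rbl1, at chr2:157145893-157204534, are on the minus strand. E2f1 is at chr2:154559407-154569892 on the minus strand, E2f2 at chr4:136172394-136196057 on the plus strand and E2f8 at chr7:48866429-48881596 on the minus strand.

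Values are given as RPKM, a level corrected for gene length and for library size. The totals behind the libraries, read from the steps of the deposited values, ranged from 6112586 to 11997945 reads. Each of the 13 alveolar macrophage marker genes tabulated was detected in every group, and their summed level was 9640 to 11630 RPKM at 24 h, 8437 to 9621 RPKM at 2 h and 12020 to 12330 RPKM in naive. Most of the 13 differed at 24 h against naive, where 2 were higher and 9 lower, beside 25.3% and 20.6% of all genes tested. The surface lectin gene Siglecf averaged 27.1 RPKM at 24 h and 58.3 RPKM in naive, and the scavenger receptor gene Marco 398 RPKM at 24 h and 94.9 RPKM in naive (adjusted p = 0.000167 and 3.56e-06). The sum is carried by Chil3, at 7802 RPKM at 24 h and 7780 RPKM in naive. At 2 h against naive 2 of the 13 were higher and 3 lower, beside 14.7% and 22.0% of all genes tested. The part of these changes in the results was not tested. Of 40 markers of other cell types 16 were high enough to test. At 24 h against naive 2 were higher and 10 lower, and at 2 h against naive 0 were higher and 7 lower. Summed over the 40 genes they came to 98.3 to 113 RPKM at 24 h, 98.5 to 121 RPKM at 2 h and 127 to 138 RPKM in naive. The lower sum at 24 h against naive was mostly that of Epcam, of the epithelial list. Epcam averaged 12.2 RPKM at 24 h, 38.2 RPKM at 2 h and 42.5 RPKM in naive. The lymphocyte list was lower too (0.859 to 1.89 RPKM at 24 h, 6.45 to 9.68 RPKM in naive). The monocyte list overlapped naive (20.8 to 30.1 RPKM at 24 h, 24.6 to 26.1 RPKM in naive). The neutrophil list (highest at 24 h, 30.3 to 37.4 RPKM against 14.1 to 20.8 RPKM in naive) was carried by S100a8. Of its other 6 genes, Csf3r was lower at 24 h (2.01 RPKM against 6.51 RPKM in naive, adjusted p = 3.99e-05). Ly6g and Mpo were at 0 in all 24 h and all naive libraries, Camp had at most 2 reads in a 24 h library and 0 in naive, and Retnlg and S100a9 averaged under 1 RPKM in each group. The 2 h libraries stand apart in another way: 38 genes averaged 2 RPKM or more at 2 h and 5% of that or less in naive, without overlap, against 2 such genes at 24 h and 0 in the reverse direction. One of them, the MHC class II pseudogene H2-Ea-ps, had 19.3 to 27.1 RPKM at 2 h, 1.48 to 5.203 RPKM at 24 h and at most 0.184 RPKM in naive. The 38 were drawn from all 43430 genes, and none of the 10 regulators was among them (0 of 10). With naive means from 1.23 RPKM (E2f8) to 43.1 RPKM (Cdkn1a), the 10 could hardly qualify, so this count says little. In all 3 comparisons time cannot be told apart from other differences between the groups of libraries.

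All 10 genes passed the filter on low values (at least 1 RPKM in at least 4 of 12 libraries), and all 10 would have passed it without the group in which they were highest. The test throughout is limma on log2(RPKM + 1) over all genes, with Benjamini-Hochberg adjusted p-values and a threshold of 0.05. Between 2 h and naive 1 of the 10 was higher, 4 were lower and 5 did not pass. Over all 11419 genes tested, 36.7% passed in that comparison, 14.7% higher and 22.0% lower. The 4 libraries at 2 h lay entirely above the 4 naive ones for 1 of the 10 and entirely below for 3, as they did for 14.0% and 20.5% of all genes. Between 24 h and naive 7 were higher, 0 lower and 3 did not pass, where 45.9% of all genes passed, 25.3% higher and 20.6% lower. The libraries lay entirely above for 7 and below for 1, against 25.8% and 22.0% of all genes. Between 24 h and 2 h 8 were higher, 1 lower and 1 did not pass, with 52.5% of all genes passing, 30.9% higher and 21.5% lower. Those libraries lay entirely above for 8 and below for 1, against 27.5% and 18.2% of all genes. The median log2 fold change of the 10 was -0.34 at 2 h against naive, 1.06 at 24 h against naive and 1.58 at 24 h against 2 h, beside medians of -0.04, 0.00 and 0.05 over all genes. The 3 comparisons share their libraries, so their counts are not separate evidence. In bulk RNA, fewer cells of a type and less RNA per cell cannot be told apart.

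**Figure D1:**
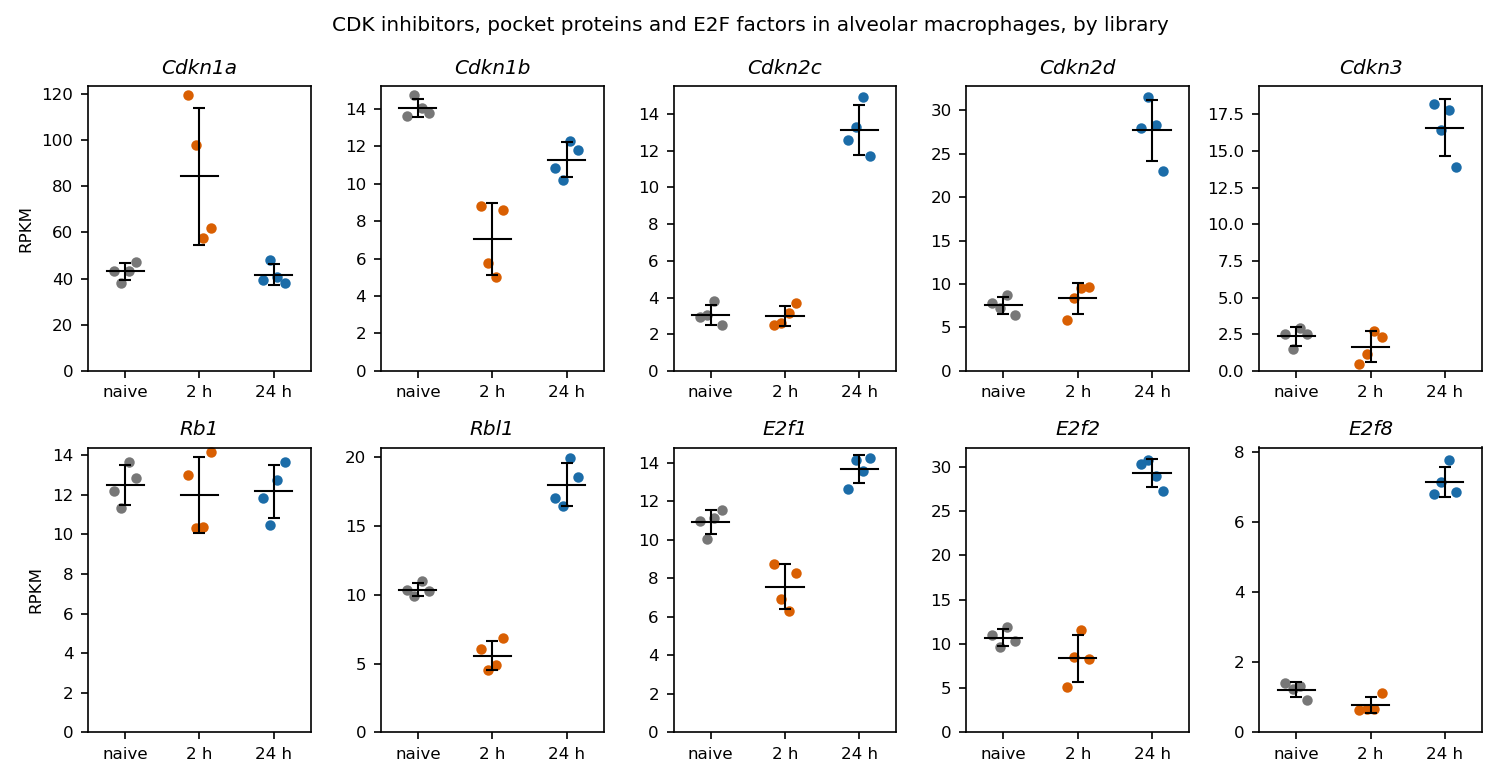
RPKM of each of the 10 genes in every library (y axis, from 0; each panel has its own scale) by group (x axis: naive, 2 h and 24 h after reperfusion); points are libraries, horizontal lines are means of 4 libraries and bars are SD. Cdkn1a was highest at 2 h (57.7 to 119 RPKM), Cdkn2c, Cdkn2d, Cdkn3, Rbl1, E2f1, E2f2 and E2f8 were highest at 24 h, Cdkn1b was lowest at 2 h and Rb1 was at 10.3 to 14.2 RPKM in all 12 libraries.

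The CIP/KIP inhibitors moved in opposite directions at 2 h. Cdkn1a encodes p21, an inhibitor of cyclin-CDK complexes that p53 and other stress signals induce. It had 119, 98.0, 57.7 and 62.0 RPKM in the 2 h libraries numbered 1 to 4, against 43.5, 38.2, 43.5 and 47.3 RPKM in the naive libraries, from 1017 to 4312 recovered reads per library. No 2 h library was as low as any naive library, and the first and second 2 h libraries were well above the other two. The mean was 84.3 ± 29.5 RPKM at 2 h and 43.1 ± 3.76 RPKM in naive (SD, n = 4 each), so that it rose 1.95-fold, by 0.89 ± 0.20 (SE) on the log2 scale, with an adjusted p of 0.0046. In the 24 h libraries Cdkn1a was back between 38.1 and 48.2 RPKM, which overlaps the naive libraries. Its log2 fold change at 24 h against 2 h was -0.94 (adjusted p = 0.0017). Against naive, the 24 h libraries gave a log2 fold change of -0.05 with a 95% interval of -0.48 to 0.38 (adjusted p = 0.85).

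Cdkn1b encodes p27, which keeps CDK2 inactive in resting cells. It had 8.79, 5.79, 5.03 and 8.57 RPKM at 2 h, against 13.6, 14.7, 14.0 and 13.8 RPKM in naive. The naive libraries lay close together and all 4 libraries at 2 h were below them. Cdkn1b fell to a mean of 7.05 ± 1.92 RPKM at 2 h, against 14.0 ± 0.497 RPKM in naive (SD, n = 4 each, log2 fold change -0.93 ± 0.14, SE, adjusted p = 0.000444). At 24 h it had 10.8, 10.2, 12.3 and 11.8 RPKM. These values lie above every 2 h library and below every naive library. Cdkn1b rose at 24 h against 2 h (log2 fold change 0.64, adjusted p = 0.00217), and at 24 h against naive the log2 fold change of -0.29 did not pass (adjusted p = 0.104), although it passed when the 24 h and naive groups were fitted alone (adjusted p = 0.00354). Of the genes that act on p27, 8 were listed and tested. The transcription factor genes Foxo3 and Foxo4, which activate Cdkn1b, were lower at 2 h against naive (log2 fold changes -0.46 and -0.59) and at 24 h against naive (-0.37 and -0.54). Foxo1, listed with them, did not pass in either comparison (log2 fold changes -0.12 and -0.09, adjusted p = 0.27 and 0.42). Skp2 and Cks1b encode the receptor and cofactor that mark p27 for degradation. Skp2 averaged 0.713 RPKM in naive, 0.520 RPKM at 2 h and 1.55 RPKM at 24 h (adjusted p = 0.285 and 0.00238 against naive). Cks1b was 3.01-fold higher at 24 h than in naive (adjusted p = 9.48e-07) and did not pass at 2 h (log2 fold change -0.16, adjusted p = 0.292). Skp2 passed the filter on low values only through its 24 h libraries. Cks2, a close relative of Cks1b, was 1.88-fold higher at 24 h, and Rbx1, a subunit of the same ubiquitin ligase, 1.28-fold (adjusted p = 0.000349 and 0.000138). In all, 0 of the 8 were higher and 2 lower at 2 h against naive, and 4 were higher and 2 lower at 24 h against naive. Of all genes tested, 14.7% were higher and 22.0% lower at 2 h, and 25.3% and 20.6% at 24 h.

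The genes of the p53 network were examined beside Cdkn1a. Of 15 listed genes 14 were tested, and at 2 h against naive 4 were higher, 4 lower and 6 did not pass (median log2 fold change -0.20). Among all genes, 14.7% were higher and 22.0% lower at 2 h, and 25.3% and 20.6% at 24 h. Trp53 itself fell to 4.56 RPKM at 2 h, against 6.60 RPKM in naive (log2 fold change -0.45, adjusted p = 0.000224). Mdm2, the p53 target that degrades p53, rose 1.46-fold to 7.25 RPKM (adjusted p = 0.000989), and Gadd45a, a growth arrest gene, averaged 2.73 RPKM at 2 h and 0.782 RPKM in naive, a rise of 1.04 on the log2 scale (adjusted p = 0.00055) in a gene that passed the filter only through its 2 h libraries. Pmaip1, which encodes the death-promoting protein NOXA, rose 1.97-fold (adjusted p = 0.00425), and the nuclease gene Aen rose by 0.41 on the log2 scale (adjusted p = 0.00729). Bbc3, which encodes the death-promoting protein PUMA, and Ccng1, which encodes cyclin G1, were lower, with log2 fold changes of -0.77 (adjusted p = 0.000498) and -0.48 (adjusted p = 0.00298). The textbook targets of p53 thus went both ways at 2 h. By 24 h, again against naive, 1 of the 14 was higher (Aen, log2 fold change 0.37), 2 were lower (Bbc3, -0.40, and Btg2) and 11 did not pass, among them Mdm2 (-0.05), Trp53 (0.10) and Bax (0.15). Btg2, an antiproliferative gene, averaged 33.7 RPKM at 24 h and 100.2 RPKM in naive (log2 fold change -1.55, adjusted p = 0.047).

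The INK4 inhibitor genes Cdkn2c and Cdkn2d, and Cdkn3, were higher at 24 h against naive, whereas the INK4 gene Cdkn2b did not pass. Cdkn2c, the gene of p18, had 12.6, 13.3, 14.9 and 11.7 RPKM at 24 h, against 2.92, 3.03, 3.81 and 2.52 RPKM in naive. It rose 4.28-fold (log2 fold change 1.80 ± 0.12, SE, adjusted p = 2.43e-07). Its 2 h values ran from 2.501 to 3.705 RPKM, inside the naive range but for its lowest library, and the log2 fold change against naive was -0.03 with a 95% interval of -0.28 to 0.22. Cdkn2d, the gene of p19, had 27.9, 31.5, 28.2 and 23.0 RPKM at 24 h, against 7.87, 7.24, 8.73 and 6.44 RPKM in naive. Its rise was 3.66-fold (log2 fold change 1.74 ± 0.14, SE, adjusted p = 1.9e-06). At 2 h it had 5.82, 8.44, 9.52 and 9.67 RPKM, overlapping naive, with a log2 fold change of 0.11 and an interval of -0.20 to 0.43. For both genes every 24 h library lay above every naive library, which was so for 25.8% of all genes. Cdkn2b, which encodes the INK4 inhibitor p15, fell to 0.775 RPKM at 2 h, against 1.43 RPKM in naive (adjusted p = 0.00761), and averaged 1.29 RPKM at 24 h (adjusted p = 0.603 against naive). Cdkn2aip, which is listed with it but does not encode a CDK inhibitor, fell at 2 h too, with an adjusted p of 0.000183 and a log2 fold change of -0.63, and did not pass at 24 h (0.04, adjusted p = 0.683). These were the 2 of 4 genes listed that were high enough to test. Of the untested ones, the INK4 gene Cdkn2a averaged 1.26 RPKM at 24 h (16 to 27 reads per library) and 0.245 RPKM in naive (2 to 5 reads). The CIP/KIP gene Cdkn1c averaged 0.0671 RPKM at 24 h and 0.176 RPKM in naive.

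Cdkn3 encodes a phosphatase that acts on CDKs, and differs in kind from the other inhibitors. It had 18.2, 16.5, 17.8 and 13.9 RPKM at 24 h, against 2.50, 1.47, 2.94 and 2.54 RPKM in naive. The 24 h values came from 98 to 169 reads per library and the naive values from 9 to 17, so the level of the naive and 2 h libraries is the least precise of the 10 genes. At 2 h it had 0.503, 1.12, 2.71 and 2.32 RPKM from 4 to 18 reads. The first 2 libraries were below the naive range and the other 2 inside it. The 2 h mean of 1.66 ± 1.03 RPKM against 2.36 ± 0.628 RPKM in naive (SD, n = 4 each) did not pass (adjusted p = 0.231). At 24 h against 2 h the rise was 9.96-fold (log2 fold change 2.81 ± 0.25, SE, adjusted p = 2.56e-06). The stretch before its annotated start is shown because it holds both elements by which late cell cycle promoters are known, a CHR (cell cycle genes homology region, here TTTGAA or TTCGAA) and CCAAT boxes. It is GRCm38.p6 chr14:46760381-46760540, plus strand, from RefSeq, 160 bases up to the start, and capitals mark the matches, those on the other strand reading TTCAAA and ATTGG.
Cdkn3: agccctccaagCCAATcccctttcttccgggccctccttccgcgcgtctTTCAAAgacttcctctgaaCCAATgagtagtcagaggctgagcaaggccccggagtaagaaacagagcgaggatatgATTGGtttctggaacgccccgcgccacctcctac
In these 160 bases 3 CCAAT boxes and 1 CHR match were found. A CHR match was present in 19.2% and a CCAAT match in 37.4% of all 32851 promoter windows of 300 bases, 250 before to 50 after the start, both strands searched. The genes other than Rb1 have 12 such windows, of which 3 held a CHR match and 7 a CCAAT match. A match is a string of letters and not evidence of binding.

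**Figure D2:**
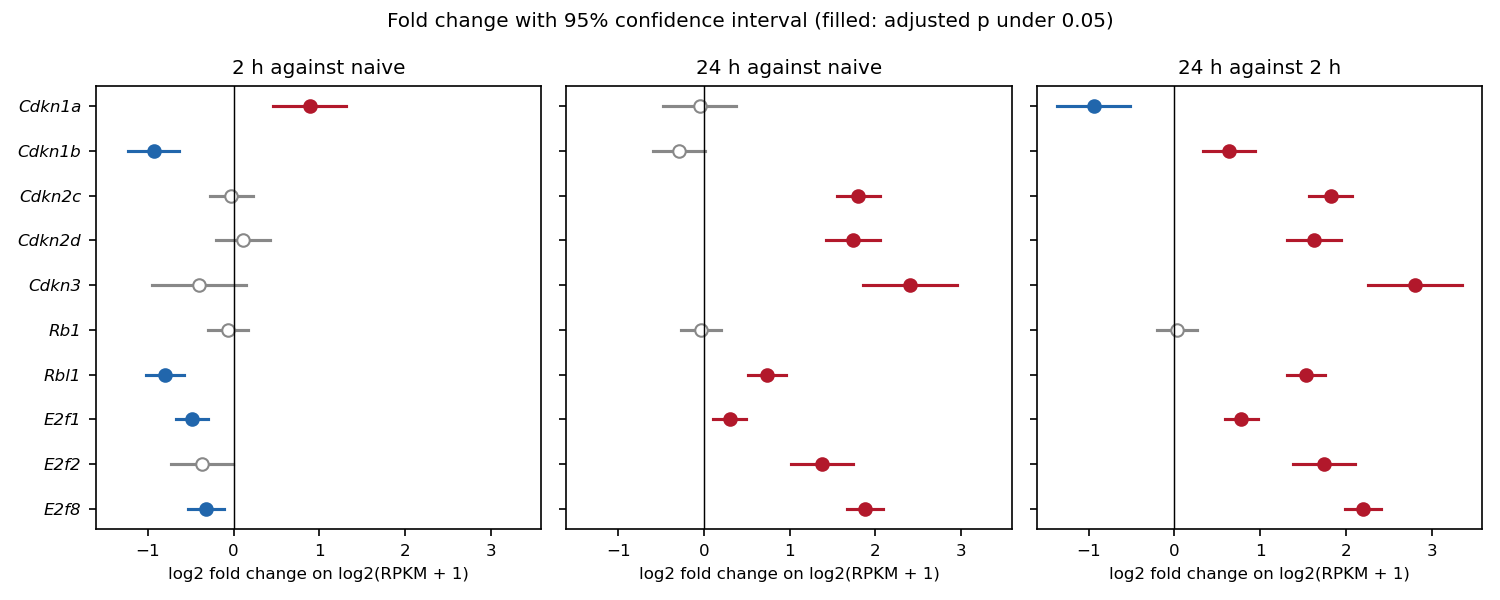
Log2 fold change on the log2(RPKM + 1) scale (x axis) of each of the 10 genes (y axis) in the 3 comparisons, with 95% confidence intervals from limma; filled red points were higher and filled blue points lower at an adjusted p under 0.05, and open grey points did not pass. At 2 h against naive only Cdkn1a lies to the right among the filled points, and at 24 h against naive the 7 filled points lie between 0.30 and 2.40.

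The pocket protein genes parted from each other. Rb1, the gene of the retinoblastoma protein, had 13.0, 10.3, 10.4 and 14.2 RPKM at 2 h and 11.8, 10.5, 12.7 and 13.7 RPKM at 24 h, against 12.2, 11.3, 13.6 and 12.8 RPKM in naive. The 3 groups overlapped. The log2 fold change was -0.07 at 2 h against naive (95% interval -0.30 to 0.17), -0.04 at 24 h against naive (-0.27 to 0.20) and 0.03 at 24 h against 2 h (-0.20 to 0.26), so changes beyond 0.30 on that scale lie outside all 3 intervals. Several annotated genes overlap Rb1, and Gm17233, the most abundant of them and annotated on the same strand, had 5.82 to 8.12 RPKM at 24 h, 9.28 to 11.5 RPKM at 2 h and 9.40 to 11.9 RPKM in naive. How shared reads were assigned is not stated, so the level of Rb1 is uncertain to that extent.

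Rbl1, which encodes p107, a pocket protein that binds repressive E2F factors and is itself a known E2F target, had 6.07, 4.51, 4.89 and 6.83 RPKM at 2 h, against 10.4, 9.91, 10.98 and 10.2 RPKM in naive. All 4 libraries at 2 h were lower. It fell to 5.58 ± 1.07 RPKM at 2 h, against 10.4 ± 0.45 RPKM in naive (SD, n = 4 each, log2 fold change -0.80 ± 0.10, SE, adjusted p = 0.000169). Its 24 h values were 17.03, 16.5, 19.9 and 18.5 RPKM, above every other library, a 1.73-fold rise against naive (log2 fold change 0.74, adjusted p = 0.000121) and a 3.23-fold rise against 2 h (adjusted p = 2.05e-07). Rbl2, the gene of the third pocket protein, p130, fell at 2 h as well (log2 fold change -0.49, adjusted p = 0.0118) but did not pass at 24 h against naive (-0.15, adjusted p = 0.36). Its 24 h libraries (6.44 to 7.39 RPKM) still lay below all naive libraries (7.54 to 7.76 RPKM), as was so for 22.0% of all genes. The 80 bases before the annotated start of Rbl1 are shown because they hold a full E2F consensus match (TTTCGCGC, in capitals, which begins 18 bases before the start). They are GRCm38.p6 chr2:157204535-157204614, minus strand, from RefSeq.
Rbl1: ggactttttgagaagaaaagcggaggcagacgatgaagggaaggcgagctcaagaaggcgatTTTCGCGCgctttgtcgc
Any of the 4 E2F motifs searched (TTTCGCGC, TTTCCCGC, TTTGGCGC and TTTGCCGC) was present in 2.3% of all windows and in 2 of the 12 windows of these genes, 1 each of Rbl1 and E2f2.

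Among E2f1, E2f2 and E2f8, E2f1 had the smallest fold change at 24 h against naive. E2f1 encodes an activator of S phase genes and had 8.76, 6.94, 6.30 and 8.30 RPKM at 2 h, against 10.04, 11.1 and 11.5 RPKM in naive replicates 2, 3 and 4, with naive replicate 1 just under replicate 3. Its log2 fold change was -0.48 (adjusted p = 0.00145), with all 4 libraries at 2 h below naive. The 24 h libraries had 12.7, 14.1, 13.6 and 14.2 RPKM, a 1.25-fold rise against naive (log2 fold change 0.30 ± 0.09, SE, adjusted p = 0.0149) and a 1.80-fold rise against 2 h (adjusted p = 1.58e-05). The RefSeq window of E2f1 lies inside the annotated gene, and no motif was found in it.

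E2f2, a second activator, had 30.3, 30.8, 29.0 and 27.2 RPKM at 24 h, against 10.98, 9.64, 11.9 and 10.3 RPKM in naive. The groups did not overlap and the rise was 2.74-fold (log2 fold change 1.38 ± 0.17, SE, adjusted p = 4.29e-05). At 2 h the libraries spread widely, with 5.08, 8.48, 11.6 and 8.29 RPKM. The third of them lay in the naive range, and the log2 fold change of -0.37 did not pass (adjusted p = 0.106). Without that library the comparison passed (log2 fold change -0.52, adjusted p = 0.0149). Within the 2 h group the library with the most Cdkn1a, the first, had the least E2f2 and Cdkn3. The library with the least Cdkn1a, the third, had the most of both. E2f1 did the reverse, with its highest 2 h value in the first library (8.76 RPKM) and its lowest in the third (6.30 RPKM). With 4 libraries no correlation was computed. The second RefSeq window of E2f2, which is not shown, held a CHR match and CCAAT boxes, as those of Cdkn3 and E2f8 did. In the first window the E2F match of E2f2 begins 39 bases after the RefSeq start. The 30 bases that hold it are at GRCm38.p6 chr4:136172294-136172323, plus strand, from RefSeq, with the match in capitals.
E2f2: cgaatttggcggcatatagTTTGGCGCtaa

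E2f8 is an atypical E2F, a repressor that binds DNA without a DP partner and is itself an E2F target. It had 6.81, 7.15, 7.78 and 6.88 RPKM at 24 h, against 1.42, 1.23, 1.32 and 0.928 RPKM in naive. No library of either group came near the other, and the rise of 5.84-fold (log2 fold change 1.88 ± 0.10, SE) had the smallest adjusted p of the 10 genes at 24 h against naive, 5.66e-08. At 2 h it had 0.652, 0.677, 0.672 and 1.14 RPKM from 56 to 80 reads. The last of these overlaps naive. The lower level (log2 fold change -0.32, adjusted p = 0.0229) did not pass in 8 of 22 alternative fits, including the ones without naive replicate 1 (-0.28, adjusted p = 0.0647) or 3 (-0.30, adjusted p = 0.0589) and without 2 h replicate 1, 2 or 3 (-0.29, -0.30 and -0.29, adjusted p = 0.0581, 0.0599 and 0.0561). Gm2788, a noncoding gene annotated on the opposite strand over E2f8, had 2.13 to 2.88 RPKM at 24 h and 0.416 to 0.672 RPKM in naive, and as the strand setting of the counts is not stated, the reads of the pair cannot be told apart. The 120 bases before the start of E2f8, GRCm38.p6 chr7:48881597-48881716, minus strand, from RefSeq, are shown beside those of Cdkn3 because they too hold a CHR match and a CCAAT box, both on the other strand and in capitals.
E2f8: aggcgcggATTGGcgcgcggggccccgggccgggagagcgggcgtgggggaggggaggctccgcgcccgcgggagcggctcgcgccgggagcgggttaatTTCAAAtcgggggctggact

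The rest of the E2F family gives the context of these genes. Of 8 other pocket protein, E2F and DP genes 7 were tested. At 24 h against naive 4 of the 7 were higher and 0 lower, beside 25.3% and 20.6% of all genes. E2f7, the other atypical repressor, averaged 0.467 RPKM in naive, 0.207 RPKM at 2 h and 2.06 RPKM at 24 h (adjusted p = 0.0217 and 1.4e-06 against naive), and it passed the filter only through its 24 h libraries. E2f3, an activator, rose 1.84-fold (adjusted p = 0.000111), E2f6, a repressor that does not bind pocket proteins, 1.89-fold (adjusted p = 3.91e-05) and Tfdp1, the DNA-binding partner DP1, 2.04-fold (adjusted p = 1.14e-05). E2f4, the main E2F of resting cells, was at 27.5 RPKM at 24 h and at 2 h, and at 25.4 RPKM in naive (adjusted p = 0.253 and 0.274). E2f5, its close relative, averaged 1.02 RPKM at 24 h and 1.43 RPKM in naive (adjusted p = 0.0751). Of this list Rbl2 and E2f7 were lower at 2 h against naive, as were 22.0% of all genes. The other 5 did not pass.

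**Figure D3:**
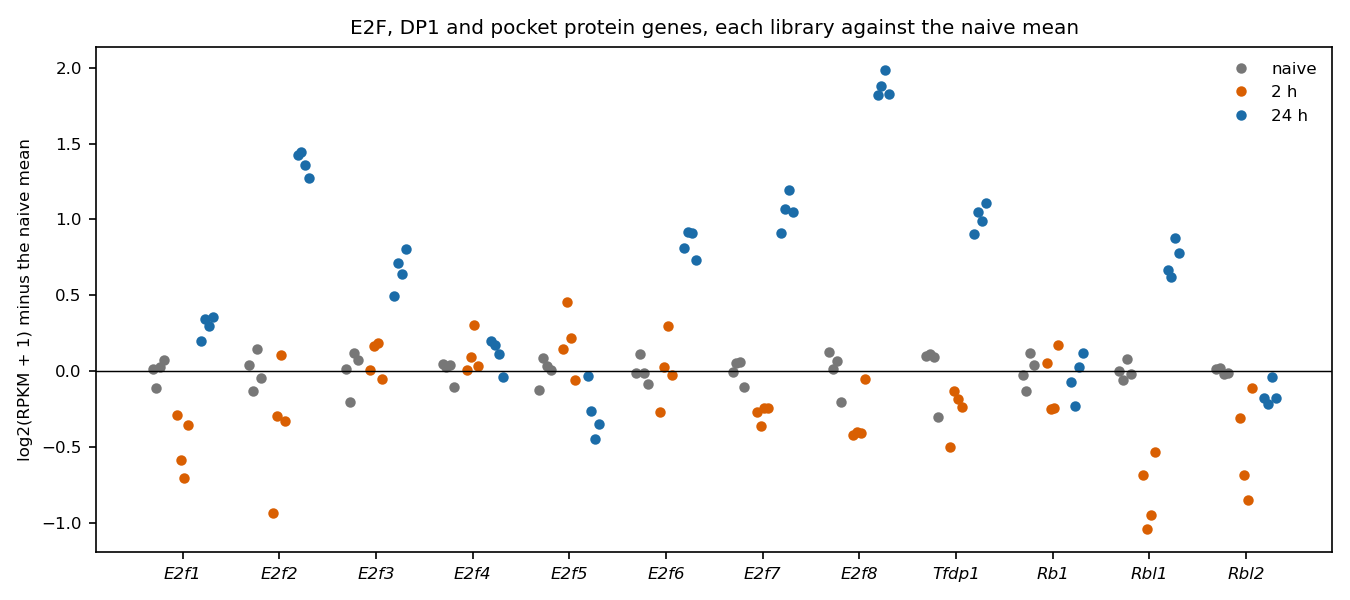
Log2(RPKM + 1) of each library minus the mean of the naive libraries (y axis) for E2F genes, Tfdp1 and the 3 pocket protein genes (x axis); points are libraries, coloured by group. The 24 h libraries of E2f1, E2f2, E2f3, E2f6, E2f7, E2f8, Tfdp1 and Rbl1 lie above all naive libraries. Those of E2f4, E2f5 and Rb1 overlap them, and those of Rbl2 lie below.

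Genes that act above and below the 10 were counted in the same fit. Among textbook E2F targets of DNA replication, 17 of 22 were lower at 2 h against naive, 0 higher and 5 did not pass (median log2 fold change -0.34, beside 22.0% of all genes lower). All 22 were higher at 24 h against naive (22 of 22, median 1.80, beside 25.3% of all genes). Rrm2, a subunit of ribonucleotide reductase, averaged 10.7 RPKM in naive, 6.63 RPKM at 2 h and 64.0 RPKM at 24 h (adjusted p = 0.000364 and 8.31e-09 against naive). Rrm1, its partner subunit, rose 4.67-fold at 24 h, and Mcm7, of the replicative helicase, 3.55-fold (adjusted p = 6.18e-09 and 8.31e-09). Mcm3, of the same helicase, rose 3.97-fold at 24 h and fell by 0.28 on the log2 scale at 2 h, and the origin licensing gene Cdc6 passed the filter only through its 24 h libraries. Mki67, the gene of the proliferation marker Ki-67, averaged 21.6 RPKM in naive, 14.5 RPKM at 2 h and 98.0 RPKM at 24 h (adjusted p = 0.00232 and 4.77e-08 against naive). It is 1 of 5 proliferation markers, of which 5 were higher at 24 h and 4 lower at 2 h, each against naive. The others are Pclaf (7.60-fold at 24 h), which binds the replication clamp, Top2a (4.95-fold), a topoisomerase gene, Aurkb (4.80-fold), a mitotic kinase gene, and Birc5 (4.95-fold), the gene of survivin, which was the one that did not pass at 2 h (adjusted p = 0.0571).

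Counts in the lists below stand beside 14.7% of all genes higher and 22.0% lower at 2 h, and 25.3% and 20.6% at 24 h. Among 9 genes of G1 cyclins and their kinases, 1 was higher and 2 lower at 2 h, and 6 were higher and 1 lower at 24 h, each against naive. Ccne1 and Ccne2, which are also among the E2F targets counted above, were the 2 lower at 2 h, and both were higher at 24 h. Ccnd2, the gene of cyclin D2, whose complexes with CDK4 and CDK6 the INK4 proteins block, was the one that rose at 2 h, to 133 RPKM against 60.7 RPKM in naive (2.20-fold, adjusted p = 0.00222), and at 24 h it averaged 51.8 RPKM (adjusted p = 0.353 against naive). Ccne1, the gene of cyclin E1, fell to 1.18 RPKM at 2 h, against 1.78 RPKM in naive (adjusted p = 0.00358), and rose 5.17-fold at 24 h (adjusted p = 1.36e-08). Ccne2, of cyclin E2, did likewise (log2 fold change -0.49 at 2 h and 1.36 at 24 h). Cdk2, the kinase gene of that complex, rose 2.09-fold and Cdk4 1.72-fold at 24 h (adjusted p = 4.63e-06 and 7.53e-07), whereas Cdk6 was lower (log2 fold change -0.56, adjusted p = 0.00246). In the list of G2 and M cyclins and CDK regulators 0 were higher and 3 lower at 2 h, and 8 of 8 were higher at 24 h, with Cdk1 5.28-fold and Ccnb1 4.95-fold higher (adjusted p = 2.57e-08 and 5.26e-08). Ccna2, of cyclin A2, and Pkmyt1, a kinase gene that restrains CDK1, were lower at 2 h (log2 fold changes -0.44 and -0.49) and higher at 24 h (2.02 and 1.38). Of 6 tested genes for the MuvB complex, which pocket proteins join to repress cell cycle genes, and its partners, 4 were higher at 24 h. Those 4 are Mybl2 (5.15-fold) and Foxm1 (4.37-fold), the genes of the activating partners, Rbbp4 (1.64-fold) and Lin54 (1.90-fold), which passed the filter only through its 24 h libraries. At 2 h 1 of the 6 was lower, Lin37 (log2 fold change -0.28, adjusted p = 0.0103), and 0 were higher. TGF-beta signalling, which raises CDK inhibitors in many cells, was represented by 5 tested genes, of which 1 was higher and 0 lower at 2 h and 0 higher and 4 lower at 24 h, each against naive. The ligand gene Tgfb1 and the receptor gene Tgfbr1 were lower at 24 h, by log2 fold changes of -0.35 (adjusted p = 0.000182) and -0.49 (adjusted p = 0.00197), as was Smad4 (-0.23, adjusted p = 0.0154). Tgfbr2, the other receptor gene, was the one higher at 2 h (0.14, adjusted p = 0.0338) and was lower at 24 h (-0.12, adjusted p = 0.0426).

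**Figure D4:**
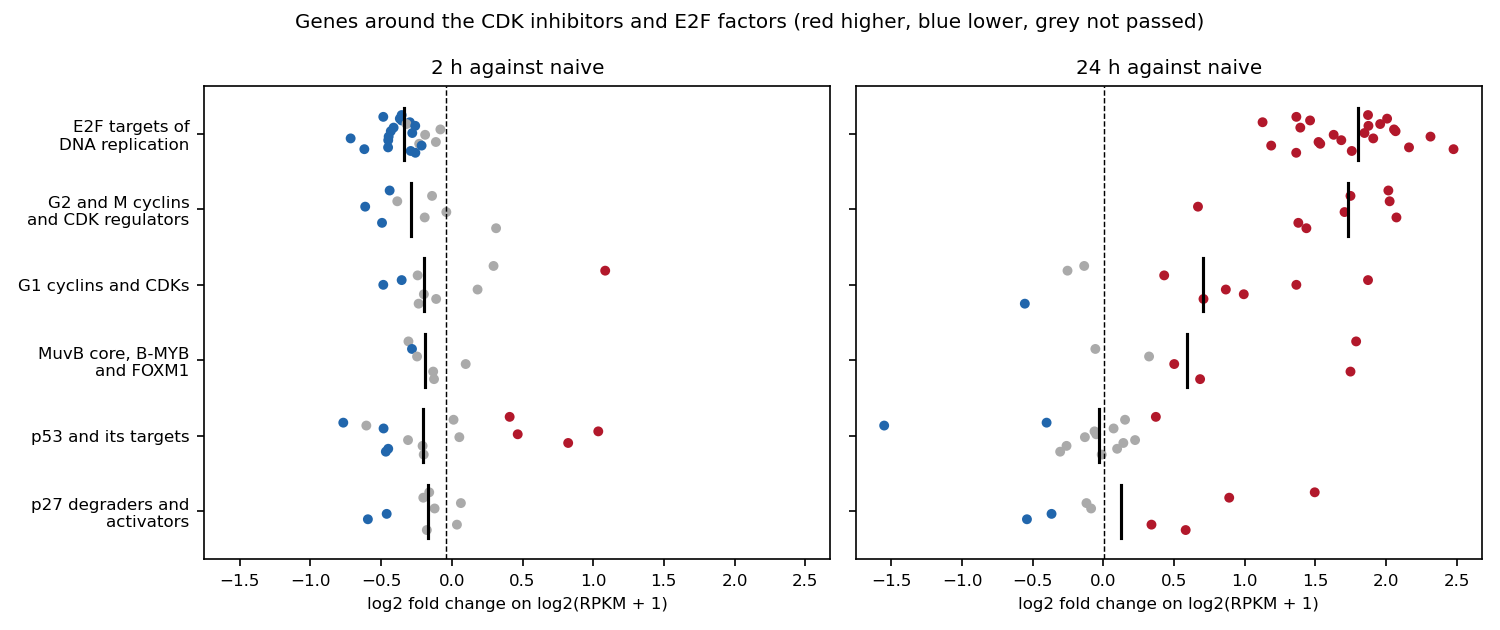
Log2 fold change on the log2(RPKM + 1) scale (x axis) of the tested genes of 6 lists (y axis) at 2 h against naive and at 24 h against naive; points are genes (red higher, blue lower, grey not passed), short lines are list medians and the dashed line is the median of all genes tested. The 22 E2F targets lie below 0 at 2 h and between 1.13 and 2.48 at 24 h, while the p53 genes lie on both sides of 0.

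The genes whose values followed 9 of the 10 most closely over the 12 libraries were sought among 8025 protein-coding genes with a mean of at least 2 RPKM, by Pearson's r on the log2(RPKM + 1) scale. These coefficients describe 12 libraries in 3 groups, which share their group differences, and carry no p-value. Cdkn1a was followed most closely by Hilpda (r = 0.984) and Sik1 (0.967), and Cdkn1b by Swap70 and Lsm14a (0.976 each). The nearest genes were Cdk1 (0.994) and Enkd1 for Cdkn2c, Fen1 (0.989) and Bora for Cdkn2d, and Prc1 and Mcm4 (0.997 each) for E2f8. Cdkn3 was nearest to Cep55 (0.988), followed by E2f2 (0.987), and E2f2 to Polh (0.993), followed by Cdkn3. E2f1 was nearest to Helb and Siae (0.971 each). For Rb1, which passed in 0 of the 3 comparisons, the highest coefficient was 0.873, with Lactb, lower than for the others given.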

How the data were processed

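The authors deposited RPKM values for Ensembl genes in 12 libraries. The build mm10 and the tools bcl2fastq, TopHat2 and HTSeq are named in the submitters' processing notes. The sources used here do not give versions, annotation, gene lengths or strand setting. Symbols and positions came from GENCODE vM21 on the same assembly (97.8% of 43430 rows matched). The size of each step in RPKM gave library totals, and with them 11418 of 11419 tested genes came out as whole reads (tolerance 0.02 of a read). These totals are inferred, and cover counting error only. The gene lengths implied by the values equalled the GENCODE vM21 exon length for 16.5% of the tested genes compared. For Cdkn3 the implied length was 773 bases against 2371 annotated, and for E2f8 9701 against 5443. Levels of different genes therefore compare only roughly.

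Genes with at least 1 RPKM in at least 4 of 12 libraries were tested with limma 3.58.1 in R 4.3.3 on log2(RPKM + 1), all 12 libraries in 1 fit with a variance trend, two-sided, Benjamini-Hochberg adjusted per comparison over 11419 genes. Such fold changes understate those of low genes, and ratios given as folds are of mean RPKM. The p-values rest on the variation among libraries whose separate origin no label states, so it may be technical. The steps were tested on simulated data. BLAST 2.17.0 found 0 copies of the 10 genes among other genes' transcripts (at least 90% identity over 200 bases). Promoter sequences are RefSeq's (GRCm38.p6), and protein sequences were not analysed here.

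The genes and lists were chosen with earlier results of these data known. All 10 genes are named, with up to 4 genes of each list by smallest p at 24 h against naive and Trp53, Mdm2, Skp2, Mki67, E2f7, Rbl2, E2f4 and Cdkn2b. The 2 genes most like each of the 10 are also named, except that those of Rbl1 are not reported here. Others (Ccnd2, Cdk6, Lin37, Foxo1, Foxo3, Foxo4, E2f5, Gadd45a, Pmaip1, Ccng1, Cdc6, Cdkn1c and Cdkn2a) were chosen after their values were seen. Cell type markers named singly (Siglecf, Marco, Chil3, Epcam and the neutrophil genes), H2-Ea-ps and the overlapping genes Gm17233 and Gm2788 also fall outside these rules. The fit was repeated with 22 other settings, 21 planned and 1 added after seeing the data.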

Additional observations from a re-analysis of the deposited data

Results flagged for a closer look

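Of 30 groups of 4 libraries (10 genes in 3 groups), 1 held a library far from the others, and chance alone flags about 1 group in 20. In the 2 h group E2f8 was 1.14 RPKM in replicate 4, from 80 reads, against 0.652 to 0.677 RPKM in the other libraries. The gap to the nearest library was 0.947 of the whole range, which is above Dixon's critical value for 4 libraries.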

How the results depend on the processing

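The 22 alternatives changed the pseudocount (0.1 or 0.5), the low-value filter (5 RPKM or none), the scaling (median ratios), the variance trend (none), the model (only the 2 groups compared, or a replicate block), the data (voom on recovered reads) or the libraries (each left out in turn and, chosen after seeing the data, naive and 24 h number 4 left out together). Over the 10 genes, 3 comparisons and 22 alternatives 637 results kept their direction and side of the threshold, 8 were lost, 3 were gained and 12 changed sign, each of the 12 without passing either way. With median-ratio scaling Cdkn2c at 2 h against naive was 0.0101 and Rb1 at 24 h against 2 h -0.0176. With naive and 24 h number 4 left out Cdkn1a at 24 h against naive was 0.0322 and Rb1 at 24 h against 2 h -0.0249. With 1 library left out, log2 fold changes ran from -0.1094 to 0.0559 for Cdkn2c at 2 h against naive, from -0.0904 to 0.0267 for Rb1 at 24 h against naive and from -0.0325 to 0.1074 for Rb1 at 24 h against 2 h. The count of the 10 genes lower at 24 h against naive, 0 in the fit described, was 1 with the 2 groups alone and 0 to 1 with a library left out, the 1 without 2 h replicate 3. That gene was Cdkn1b both times (log2 fold change -0.29, adjusted p = 0.00354 and 0.0423). No other count moved by over 1.5 times. The fall of E2f8 at 2 h was also lost with no filter, with the 2 groups alone and with the replicate block (adjusted p = 0.0504, 0.0649 and 0.0528), and the cause was not tested. Libraries with the same number did not deviate together (correlations -0.04 to 0.06, the same number being the best match in 7 of 24 cases). No pairing by number was thus seen in expression. In each group number 4 had the lowest library total, and whether the numbers pair libraries in another way was not tested. With the replicate block 4020, 5107 and 5877 of all genes were called in the 3 comparisons, against 4189, 5241 and 5992 without it, and the counts of the 10 genes with the block were 3 lower and 1 higher at 2 h, 7 higher at 24 h against naive, and 8 higher and 1 lower at 24 h against 2 h. Depth limits Cdkn3 most, with as few as 4 reads in a library, then Cdkn2d (50), Cdkn2c and E2f8 (55 each).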
